A study of Saccharomyces cerevisiae with 6 samples.

Results

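The ADE genes of purine synthesis were examined in budding yeast (Saccharomyces cerevisiae) with wild-type or mutant histone H3. Of 10 ADE genes asked for, 9 were each named by 1 probe set that the platform annotation gives to that gene alone. These 9 probe sets were examined of 9335 on the array. ADE5,7, which encodes a bifunctional enzyme for the second and the fifth steps of the pathway, was not analysed here, as the annotation used names no probe set for it. A further probe set lists ADE6 together with other genes, 4 in all, and was left out. It was dim on every array, with a scaled signal of 4.85 to 10.9. The genes were chosen with results of the mutant and wild-type comparison known, so their differences are given as a description and without a p-value.

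Total RNA was hybridised to 6 Affymetrix arrays, 3 per group, and the series design describes replicate cultures. The wild-type group carried wild-type H3. The mutant group carried H3 K4,36,79R, in which the lysines at positions 4, 36 and 79 are replaced by arginine. Both groups grew in selective galactose medium and then spent 6 h in selective glucose medium, and both were collected at OD600 0.5 to 0.7. Per the series design, glucose shuts off a wild-type H3 gene, so that only the mutant form of H3 is made. The labels give neither the strain background nor the adenine content of the medium. A difference in strain or plasmid between the groups therefore cannot be told apart from the replaced lysines. Of the 3 probe sets annotated to the H3 genes HHT1 and HHT2, 1 was at 33.3% of the wild-type mean in the mutant, another was at 93.1% and the last was too dim to test. Mutant replicate 2 stood apart from the other arrays. On it 167 tested probe sets lay at least 1 on the log2 scale below the median of the other arrays, against 19 to 81 on each of the other 5.

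Yeast builds purines step by step on an activated sugar, phosphoribosyl pyrophosphate (PRPP), to reach inosine monophosphate (IMP), from which AMP and GMP are made. Glycine and folate-bound one-carbon units are consumed on the way. Most genes of the pathway are switched on together by the transcription factors Bas1 and Pho2 when adenine is scarce, and cells that block the steps encoded by ADE2 or ADE1 are known for their red pigment.

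ADE8 was the one gene of the pathway with a large difference between the groups, and the direction was lower in the mutant. ADE8 (YDR408C) encodes glycinamide ribonucleotide transformylase, which adds a one-carbon unit in the third step. Its scaled signal, in units in which every array has a trimmed mean of 500, read 1834, 1476 and 1740 on the wild-type arrays and 702, 852 and 672 on the mutant arrays. All 3 mutant values lay below all 3 wild-type values, and the highest mutant value was that of replicate 2. The means were 1683 ± 186 and 742.1 ± 96.5 (SD, n = 3), so the mutant stood at 44.1% of the wild type. The difference, mutant minus wild type, was -1.17 (SE 0.14) on the log2(signal + 16) scale. In bulk RNA, less of a transcript in every cell and fewer cells that carry it cannot be told apart.

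In the fit over all 6808 probe sets tested, ADE8 was the only 1 of the 9 ADE probe sets called lower at an adjusted p under 0.05 (limma with Benjamini-Hochberg adjustment), and 0 were called higher. Of all probe sets tested, 1.35% were called lower and 0.896% higher. Since the genes were chosen from this comparison, nothing is read from that count. A difference as low as that of ADE8 or lower was found at 39 probe sets, 0.573% of those tested. All 9 ADE probe sets passed the filter on low signal, a mean of at least 50 over the 6 arrays.

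**Figure D1:**
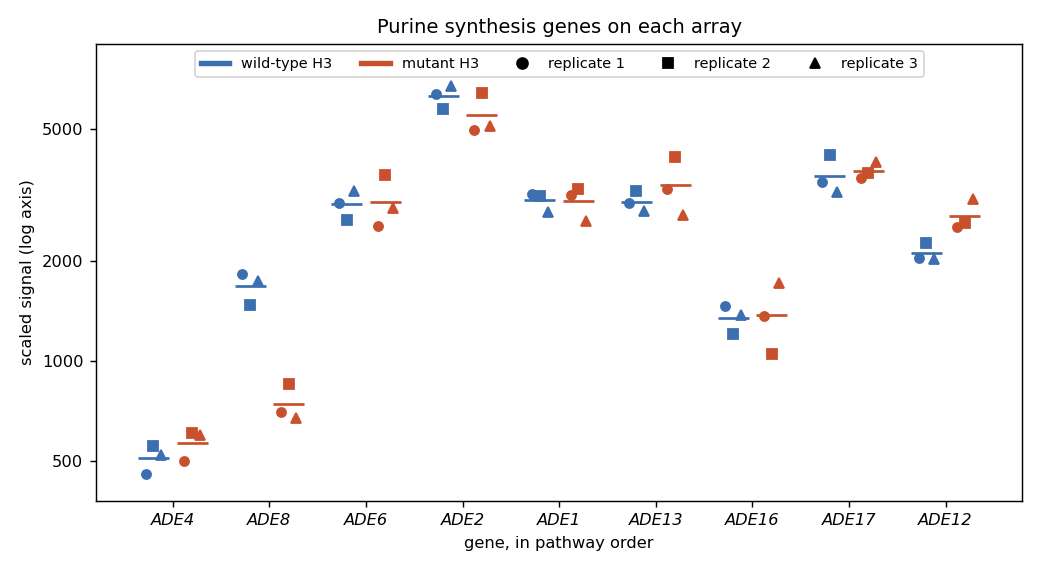
Scaled signal (log axis) of 9 purine synthesis genes in pathway order on 3 wild-type H3 arrays (blue) and 3 mutant H3 arrays (red). Marker shapes give the replicate and short lines the group means; levels are comparable between arrays for a gene, not between genes. The ADE8 groups are separated, at 1476 to 1834 and 672 to 852, and the ADE12 groups lie apart in the opposite direction.

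The step before ADE8 that was measured, and the step after it, showed no such drop. ADE4 (YMR300C) encodes the amidotransferase that commits PRPP to purines in the first step. Its signal on the wild-type arrays was 458.5, 556.2 and 521, and the mutant arrays read 500.7, 606.4 and 597.7. These ranges overlapped, with a difference of 0.15 (SE 0.14). ADE6 (YGR061C), whose enzyme adds an amino group in the fourth step, gave 3001, 2659 and 3257 against 2551, 3629 and 2882. The lowest and the highest of the 6 values were both from mutant arrays, and the difference was 0.0125 (SE 0.15).

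The genes of the later steps to IMP likewise had overlapping groups. ADE2 (YOR128C), encoding the carboxylase of the sixth step, had the lowest difference after ADE8. Its signal was 6356, 5723 and 6729 with wild-type H3 and 4976, 6411 and 5103 with mutant H3, a difference of -0.20 (SE 0.13). Mutant replicates 1 and 3 lay below the wild-type range and replicate 2 within it. ADE1 (YAR015W), which encodes the next enzyme, SAICAR synthetase, ranged from 2807 to 3192 with wild-type H3 and from 2635 to 3291 with mutant H3, a difference of -0.012 (SE 0.13). ADE13 (YLR359W) encodes adenylosuccinate lyase, an enzyme that acts both on the way to IMP and in the last step to AMP. It gave 2988, 3256 and 2820 against 3285, 4108 and 2752, and differed by 0.14 (SE 0.15), with the highest and the lowest value both in the mutant.

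ADE16 (YLR028C) and ADE17 (YMR120C) encode isozymes that carry out the last reactions to IMP. ADE16 gave 1463, 1203 and 1374 with wild-type H3 and 1365, 1054 and 1721 with mutant H3, with a difference of 0.011 (SE 0.18). ADE17 gave 3450, 4167 and 3234 against 3566, 3677 and 3976, with a difference of 0.055 (SE 0.13). Neither gene separated the groups. The ratio of ADE16 to ADE17 on each array, set against its wild-type mean, was 0.18, -0.37 and 0.19 for the wild-type arrays and 0.036, -0.38 and 0.21 for the mutant arrays (log2). It was lowest on replicate 2 of either group, and the group means differed by -0.044 with an SD of 0.32 and 0.30.

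ADE12 (YNL220W) leads from IMP into the AMP branch and encodes adenylosuccinate synthetase. It had the highest difference of the 9 genes. The wild-type arrays read 2039, 2266 and 2028 and the mutant arrays 2533, 2606 and 3084. All 3 mutant values lay above the wild-type range, and the mean was 129.9% of the wild type. The difference was 0.37 (SE 0.12) and was not called; 737 probe sets, 10.8% of those tested, had a difference at least as high. ADE8 and ADE12 were the only members of the 9 whose groups did not overlap, 1 lower and 1 higher. Over all probe sets tested the groups were separated with the mutant lower in 11.5% and with the mutant higher in 14.3%.

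**Figure D2:**
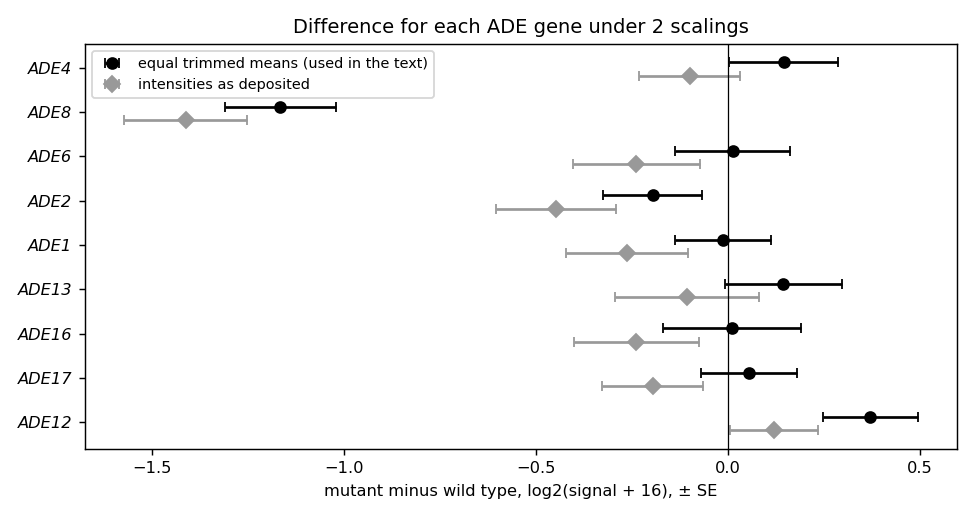
Mutant minus wild-type difference on the log2(signal + 16) scale with its SE for 9 ADE genes in pathway order, after scaling each array to equal trimmed means (black) and with the intensities as deposited (grey). ADE8 is at -1.17 and -1.41; the other 8 genes lie between -0.20 and 0.37 with equal trimmed means and each is lower on the deposited scale.

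The scaling of the arrays moved all 9 genes together. The mutant arrays were deposited with trimmed means of 76.7% to 88.8% of the wild-type mean, and on that scale the median over all probe sets tested was -0.22 in place of 0.018. With the intensities as deposited, ADE8 stood at -1.41, ADE2 at -0.45 and ADE12 at 0.12. ADE4, ADE6, ADE13, ADE16 and ADE17 then had negative differences, from -0.24 to -0.10, in place of positive ones. A ratio within each array does not depend on the scaling factor. ADE8 relative to the mean of the other 8 genes, on the log2 scale and set to 0 at the wild-type mean, was 0.13, -0.20 and 0.068 on the wild-type arrays and -1.22, -1.10 and -1.37 on the mutant arrays. The 2 ranges were far apart, and the mutant mean was -1.23 ± 0.14 (SD, n = 3). The same ratio for ADE12 was between -0.065 and 0.12 on wild-type arrays and between 0.32 and 0.70 on mutant arrays. The 8 genes that ADE12 is set against include ADE8, whose lower values on the mutant arrays raise the ratio. The mutant mean of the ratio was 0.50, against a difference of 0.37 for ADE12 itself. Such a ratio shows unequal change within the pathway and not which gene changed.

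ADE8 kept its direction and its call under each of 16 other settings, with differences from -1.41 to -1.10. The least negative value came without mutant replicate 3. Without mutant replicate 2, the array that stood apart, the difference was -1.27. ADE12 stayed positive in all 16, from 0.12 to 0.43. All of these settings reuse the same arrays, and the genes were chosen with results known, so this is a description.

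The 9 genes did not all move together from array to array. Relative to their own group means, ADE8, ADE6 and ADE2 shared a direction on every array, and none of the other genes did. On mutant replicates 1, 2 and 3, ADE8 was at -0.071, 0.20 and -0.13, and ADE2 at -0.13, 0.23 and -0.097. These genes were picked out after the values were seen, so this is a description. Of the 9, 8 varied more among the mutant than among the wild-type arrays, as did 68.1% of all probe sets tested. The median SD of the log2 values was 0.14 for wild-type and 0.18 for mutant arrays, against 0.13 and 0.20 over all probe sets tested. Over 2658 probe sets with a mean signal of 400 to 7000, it was 0.11 and 0.19. Relative to the mean of their own group, 6 of 9 genes were higher on mutant replicate 2, where ADE13 was 0.30 and ADE6 0.28 above it and ADE16 0.36 below it (-0.36). On mutant replicate 1, 2 of the 9 were above their group mean. Of all probe sets tested, 52.6% were above their group mean on mutant replicate 2 and 44.1% on mutant replicate 1. The shortest coding sequence of the 9 was that of ADE8, at 645 bases in the R64 gene table, and the longest that of ADE6, at 4077 bases. Mutant and wild type differed somewhat with coding length in this series: the median difference was -0.011 for genes of 501 to 1000 bases and 0.11 for those over 3000 bases. Among 740 tested genes of 500 to 800 bases the median was -0.019, and ADE8 was 1 of 3 at or below its own value. Taking the trend with length out of each array, an alternative added after the data had been seen, put ADE8 at -1.16.

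The genes whose 6 values followed ADE8 most closely were outside purine synthesis. The ranking left out the ADE genes, whose distances to ADE8 are given below. Likeness was the root mean square difference between the log2 values of 2 genes over the 6 arrays, each centred on its own mean, and its median over all probe sets was 0.64. The nearest were YFR018C at 0.065 and TNA1, the nicotinic acid transporter gene, at 0.084. GON7, which encodes a subunit of a tRNA-modifying complex, followed at 0.12. YGR035C and ARR1, a transcription factor gene of arsenic resistance, were at 0.15 each. For TNA1 the signal was 1110, 990.1 and 1048 with wild-type H3 and 387.6, 518.3 and 379.2 with mutant H3, again with mutant replicate 2 the highest of its group. Each of these 5 genes was at 40.8% to 49.0% of the wild-type mean in the mutant; they were picked for this likeness, so it is a description. No other ADE gene came close to ADE8, at 0.49 for ADE2 to 0.80 for ADE12. This distance includes the difference between the groups, which was large for ADE8 only. The mean pattern of the other 8 ADE genes was nearly flat, being an average of genes with differences from -0.20 to 0.37. The nearest genes to it were NFS1 (0.017), RPL32 (0.020), GGC1 (0.024), SMX3 (0.024) and IDH2 (0.025). A gene that varies little over the arrays lies near such an average, so no likeness to a single ADE gene is read from these distances. GGC1 encodes the mitochondrial carrier of guanine nucleotides.

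Most of the nearest tested neighbours of ADE8 on its chromosome had lower means in the mutant as well, though none was called. They were looked at after the values of ADE8 had been seen. TRS120, a subunit gene of a vesicle-tethering complex, lies on one side and differed by -0.36 (SE 0.14, limma adjusted p = 0.196). SIZ1, which encodes a SUMO ligase, lies on the other side and differed by -0.67 (SE 0.19, limma adjusted p = 0.10). It was dim, with a mean signal of 72.2. STE14, the next gene, which encodes a methyltransferase needed for a-factor, differed by -0.49 (SE 0.13, limma adjusted p = 0.0933). These 3 were lower than the wild-type mean on each of the 3 mutant arrays. PDR15, beyond TRS120, differed by -0.14 with overlapping groups and was above the wild-type mean on mutant replicate 2. Over the 5 tested genes on either side of ADE8, 7 of 10 had lower means and the median was -0.26. MRP20 (0.14), DFM1 (0.022) and RRP17 (0.27, with separated groups) had higher means. TRS120, SIZ1, STE14, RPB7 (-0.38) and ERD1 (-0.285) had separated groups with the mutant lower. Over all genes 11.4% were separated with the mutant lower and 15.5% with the mutant higher. Of 5178 genes, 2.24% had flanks with a median that low, and the median over all genes was 0.030. The flanks of ADE12 had a median of 0.19, as high or higher in 8.25% of genes. POP1, a subunit gene of RNase P, differed by 0.52 (limma adjusted p = 0.101) and ALG9, a mannosyltransferase gene, by 0.38 (limma adjusted p = 0.145), on either side of it. Of 31 tested genes within 2 places of any of the 9 ADE genes, 0 were called higher and 0 lower by limma. Over all genes tested, 0.869% were called higher and 1.08% lower, so nothing is read from that count. Probe set numbers run in chromosome order around ADE8, so position on the chromosome and position in the probe set numbering cannot be told apart.

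**Figure D3:**
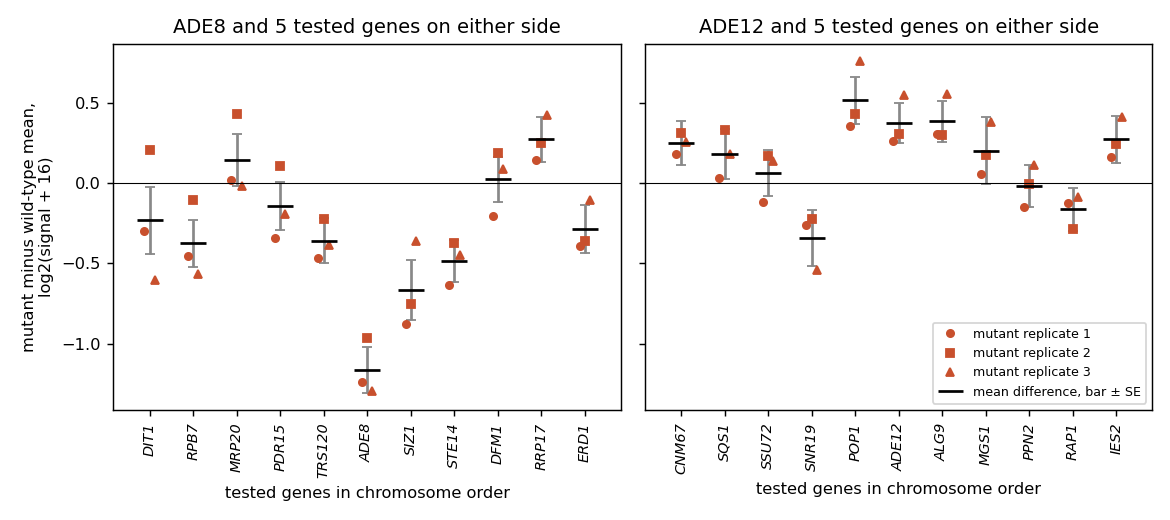
Mutant minus wild-type values on the log2(signal + 16) scale for ADE8 (left) and ADE12 (right) with the 5 tested genes on either side in chromosome order. Red markers are the 3 mutant arrays against the wild-type mean, black lines the mean difference and grey bars its SE. TRS120, SIZ1 and STE14 beside ADE8 lie below 0 on every mutant array, between -0.88 and -0.22.

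Genes that feed into, branch from or regulate the pathway, 50 in number, were examined next, each at its brightest probe set. Of 49 tested, 1 rose and 1 fell at a limma adjusted p under 0.05. Over all 5178 genes tested in this way, 0.869% were called higher and 1.08% lower. The median difference of the 49 was -0.12, against 0.030 over all genes, and 34 of the 49 had lower means in the mutant. The share of all genes with a lower mean was 45.4%. The groups were separated for 11 of the 49 with the mutant lower and for 3 with the mutant higher. Over all genes these shares were 11.4% and 15.5%. The lists were drawn up with earlier results of these data known. These counts are therefore a description, and nothing is read from them.

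The genes of one-carbon and glycine supply lay mostly below the wild type, and none passed the test. They include the enzymes that make the formyl-folate which the enzymes of ADE8, ADE16 and ADE17 use. Of 13 tested, 11 had lower means, 7 were separated with the mutant lower and 1 with the mutant higher, and the median was -0.27. Over all genes 45.4% had lower means, 11.4% were separated with the mutant lower and 15.5% with the mutant higher. This list too was chosen with earlier results known, so its counts are a description. The probe sets of FOL1 disagreed. The brightest, which is counted here, differed by 0.074. Dimmer ones differed by -0.54, with separated groups, and by -0.30 and 0.21, with overlapping groups. GCV1, a subunit gene of the glycine cleavage system, gave 1390, 1468 and 1423 with wild-type H3 and 889.5, 1010 and 1057 with mutant H3. The 3 mutant values were the lowest, with a difference of -0.53 (SE 0.12, limma adjusted p = 0.0617). FOL2, encoding the enzyme that starts folate synthesis from GTP, gave 610.4, 690.6 and 635.2 against 474.8, 468.6 and 399. Again the groups were apart, with a difference of -0.52 (SE 0.13, limma adjusted p = 0.0831). On the deposited scale GCV1 (limma adjusted p = 0.0118), FOL2 (0.0283), GCV3 (0.0448), the dihydrofolate reductase gene DFR1 (0.0332) and the one-carbon enzyme gene ADE3 (0.0357) were called lower, on a scale where the median of all probe sets is -0.22 and 5.58% of all genes were called lower. GCV1 was called under 4 of 16 other settings, the deposited scale, quantile normalization (limma adjusted p = 0.0461), the length trend removed (0.047) and without mutant replicate 2 (0.048). Under the remaining 12 its limma adjusted p was 0.0573 to 0.215, highest without wild-type replicate 3.

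Among 11 tested genes of purine salvage and uptake, FCY21 rose and FUN26 fell. FCY21 encodes a transporter related to the purine and cytosine permease FCY2. The wild-type arrays read 119, 90.8 and 84.8 and the mutant arrays 181, 233 and 190, with all mutant values above the wild type. It rose by 0.93 (SE 0.17, limma adjusted p = 0.0249). FCY22, a related gene, was below the signal filter with a mean of 39.3 and was not tested. It read 28.3, 16.6 and 6.87 on wild-type arrays and 58.6, 79.6 and 45.6 on mutant arrays. FUN26, a nucleoside transporter gene, gave 578, 499 and 572 against 381, 334 and 278. All mutant values were below the wild type, and it fell by 0.71 (SE 0.15, limma adjusted p = 0.0459). Both calls depended on single arrays and on settings. FCY21 was not called without wild-type replicates 2 (limma adjusted p = 0.0874) or 3 (0.104), without mutant replicates 1 (0.0794) or 3 (0.0664), with no signal filter (0.0533) or on the deposited scale (0.0515). FUN26 was not called without any single wild-type replicate (limma adjusted p = 0.0925 to 0.181), without mutant replicates 1 (0.0736) or 3 (0.102), with no signal filter (0.0677) or with the length trend removed (0.0556).

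The main salvage enzyme genes HPT1 and APT1 were low on 1 array only, and they are given after their values were seen. HPT1 encodes hypoxanthine-guanine phosphoribosyltransferase and gave 1455, 1151 and 1561 with wild-type H3 and 1480, 213.5 and 1526 with mutant H3. APT1, the adenine phosphoribosyltransferase gene, gave 839.1, 852.5 and 766.1 against 867.3, 344 and 798.5. The low value was that of mutant replicate 2 in both cases. The difference of HPT1 was -0.78 (SE 0.60) with that array and 0.12 (SE 0.15) without it, and that of APT1 was -0.39 (SE 0.29) and 0.024 (SE 0.13).

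None of the remaining lists had a member that passed the test. In the GMP branch and nucleotide interconversion (10 genes, median -0.069) the smallest adjusted p were those of the adenylate kinase genes ADK2 (-0.33, limma adjusted p = 0.293) and ADK1 (-0.23, 0.327). The probe sets of IMD2, an IMP dehydrogenase gene, disagreed. The brightest differed by 0.047, and the others by -0.32 (limma adjusted p = 0.491) and -0.75 (0.0653), the last with separated groups. These probe sets may also read the related IMD genes. For IMD4 the brightest probe set differed by 0.010 and another by -0.35 (limma adjusted p = 0.340), both with overlapping groups. Of the 5 PRPP synthetase genes (median -0.063), PRS3 differed by -0.18 and PRS1 by -0.16, both with a limma adjusted p near 0.50 (0.502 and 0.503). The histidine genes, whose pathway hands an intermediate to purine synthesis, had a median of -0.0065 over 7 genes. HIS3 differed by 0.28 (limma adjusted p = 0.329) and HIS6 by -0.31 (0.332). A second HIS3 probe set differed by 0.54 (limma adjusted p = 0.0871), with separated groups. HIS3 is a common plasmid marker, and the labels do not say whether it was one here. Among 3 regulators, BAS1 gave 196, 172 and 225 against 231, 173 and 251, a difference of 0.12 (SE 0.17, limma adjusted p = 0.735). GCN4, the activator of amino acid synthesis genes, differed by -0.13 (limma adjusted p = 0.550), and PHO2 by 0.047 (0.912). A p that misses the threshold does not show that levels were equal.

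**Figure D4:**
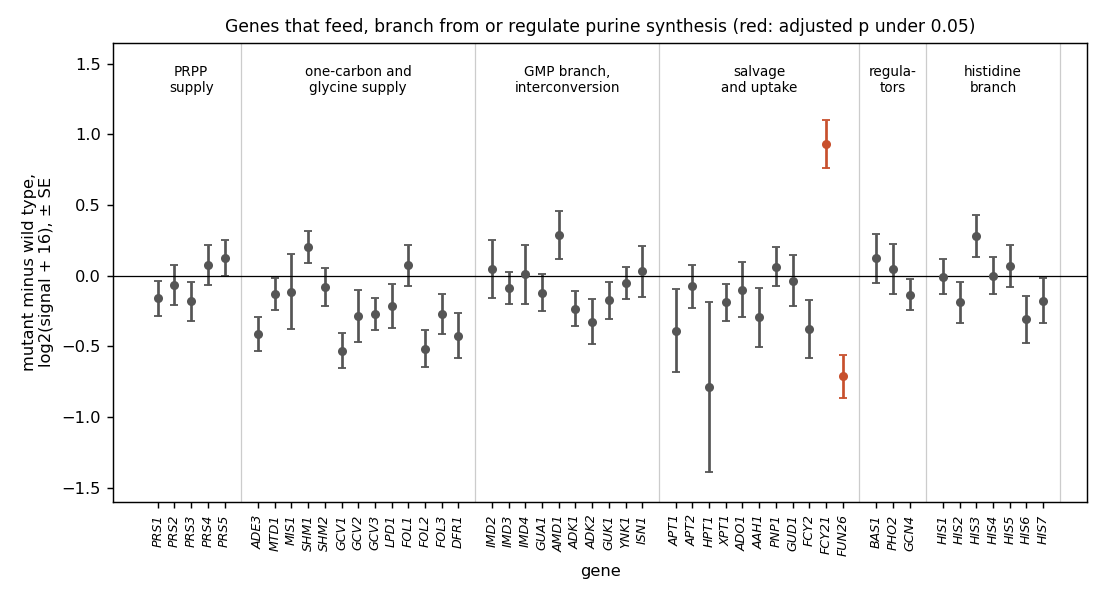
Mutant minus wild-type difference on the log2(signal + 16) scale with its SE for 49 tested genes around purine synthesis, grouped by role. The 2 genes called at an adjusted p under 0.05 (red) are FCY21 at 0.93 and FUN26 at -0.71. Of 13 genes of one-carbon and glycine supply, 11 lie below 0, and 45.4% of all genes had a lower mean.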

How the data were processed

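The intensities deposited for each probe set are linear. Per the submitters' processing notes they come from MAS5, while version and parameters are not given in the sources used here. Sample titles gave the groups and the replicate numbers. After 60 control probe sets were dropped, arrays were brought to a common trimmed mean of 500 (2% trimmed at each end). A filter on low signal, a mean of at least 50 after scaling, kept 6808 probe sets. They were fitted with limma 3.58.1 in R 4.3.3 (lmFit and eBayes with an intensity trend) on log2(signal + 16), with p-values adjusted by Benjamini-Hochberg over the whole set of 6808. A call is an adjusted p under 0.05. This scale understates changes of dim probe sets, and precision is limited by having 3 arrays a group (median SE 0.16).

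Probe sets were named through the platform annotation, which lists exactly 1 gene for 6504, all matched in the R64 gene table, used for names, gene order and coding length. Of the lengths, 97.3% are multiples of 3. The fitting step was tested on simulated data in which every probe set had the same spread. That test did not cover the scaling, the filter or the low values of mutant replicate 2. The members and lists were chosen with earlier results of these data known. Named were all ADE genes, called genes and the 2 smallest adjusted p of each related list, and the 5 genes of most similar pattern to ADE8 and to the mean of the others. HPT1, APT1, PHO2, the called genes of the deposited scale and the chromosomal neighbours were added after their values were seen. So were the other probe sets of FOL1, IMD2, IMD4 and HIS3. Promoter and protein sequences were not used here.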

Additional observations from a re-analysis of the deposited data

How the results depend on the processing

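The count of ADE probe sets called, 1 lower and 0 higher, was the same under all 16 other settings. These settings reuse the same arrays and the genes were chosen with results known, so that count is a description. The counts over all probe sets, 61 higher and 92 lower, became 31 and 370 with the intensities as deposited, 33 and 54 with no filter, 108 and 147 with the replicate block, and 32 and 58 with the length trend removed, a setting added after seeing the data. With a filter at 200, 57 were lower. Leaving out 1 array gave 13 to 124 higher and 23 to 140 lower, both highest without mutant replicate 2. Of the related genes, 1 was higher and 1 lower. These became 0 higher and 6 lower as deposited, 2 lower with quantile normalization, 0 and 0 with no filter, and 0 higher with the filter at 200, where FCY21 is no longer tested. Leaving out 1 array gave 0 to 1 higher and 0 to 2 lower. The cause of these changes was not tested. Deviations of same-numbered arrays from their group means correlated at 0.125, 0.157 and 0.042. The numbers were not taken as pairs because the last is under the 0.1 asked of every pair and the labels state no shared day or batch. As a hint from the data the other way, 5 of 6 arrays correlated best with their own number. The block left the ADE calls and the related calls as they were.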

Other observations

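Mutant replicate 2 held 167 tested probe sets that lay at least 1 on the log2 scale below the median of the other 5 arrays. Of these 167, 77 carry probe set numbers from 5501 to 7000, 46.1% of them, a range that holds 17.8% of the probe sets tested. On the other arrays the same range held 0 to 8 such probe sets, 0% to 31.6% of those low there, the highest share being 6 of 19 on wild-type replicate 1. HPT1 lies in this range, at -2.71 against the other arrays, and the ribosome assembly gene UTP5 on the neighbouring probe set was at -2.24. The probe set of ADE8 is in the same range and was at -0.78 on that array, less far down than on mutant replicates 1 (-1.06) and 3 (-1.11). Among the other 8 ADE genes no array lay further than -0.38 below or 0.46 above the median of the others. These values were looked at after the data had been seen, and their cause was not tested.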
